A study of Mus musculus with 11 samples.

Results

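The 47 genes described here encode the subunits of the receptors for GABA and glutamate, the main inhibitory and the main excitatory transmitter of the brain. They were chosen by symbol alone from the 53801 genes counted, as every protein-coding gene of the GABA-A (including rho), GABA-B, AMPA, NMDA, kainate, delta and metabotropic glutamate receptor families. The rule used no measured value, although the families were picked with earlier results of these data known. Their level was followed in cultured neural progenitor cells (NPCs) after deletion of *Smg6*. Nonsense-mediated decay removes transcripts on which translation stops too early, SMG6 makes the cut that starts their breakdown, and the study asked how its loss changes the transcriptome of these progenitors. Ribosomal RNA was depleted from total RNA before stranded sequencing, so that the reads come from all longer RNAs and not from poly(A) tails alone.

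All cultures came from brains of E13.5 mouse embryos on a C57BL/6 mixed with 129SV background, were homozygous for the floxed *Smg6* allele and were grown with EGF and bFGF. Smg6-iKO cultures (Smg6 Flox/Flox; RosaCreER tg/+, embryos SMH_127, SMH_128, SMH_132 and SMH_133) carried a tamoxifen-activated Cre in the Rosa26 locus and received 1 µM 4-hydroxytamoxifen (4-OHT). Ctr cultures (the same genotype, embryos SMH_128, SMH_132 and SMH_133) received none, and Ctr + 4-OHT cultures (Smg6 Flox/Flox; RosaCreER +/+, embryos SMH_125, SMH_126, SMH_129 and SMH_131) had no Cre but received the drug. Thus 3 embryos gave both a Ctr and a Smg6-iKO library, whereas the Ctr + 4-OHT libraries came from other embryos. Activated Cre and the loss of *Smg6* came together in Smg6-iKO and cannot be told apart. Values below are listed by embryo in the order given here for each group.

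GABA-A receptors are chloride channels assembled mostly from alpha, beta and gamma subunits, and rho subunits form related channels of the retina. AMPA, NMDA and kainate receptors are cation channels opened by glutamate, and the delta subunits resemble them but act mainly through partners outside the cell. GABA-B and metabotropic glutamate receptors signal through G proteins instead. In immature neurons and in progenitors GABA is often depolarizing, and both transmitters are known to act on the division and migration of these cells before synapses form.

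The libraries held between 26418249 and 33756875 counts, and the 47 genes took 0.201 to 0.26% of them. *Smg6* itself, as a count over the whole gene, stood at 8.22, 9.39 and 8.79 TMM-normalized CPM (counts scaled to a library of fixed size) per kb of exon in Ctr, at 7.87, 8.51, 8.55 and 7.88 in Ctr + 4-OHT and at 7.40, 7.37, 8.50 and 7.98 in Smg6-iKO. These ranges overlapped, and a whole-gene count does not show the floxed exons, so it does not check the deletion. TMM scales each library by a trimmed mean of its ratios to the others, and division by the exon length puts long and short genes on one scale. That length merges the exons of all transcripts, so levels of different genes compare only roughly. Progenitor markers were high in all libraries (*Fabp7* at 957 to 1350 CPM per kb, *Nes* at 112.2 to 158.7), neuronal markers were clearly present (*Tubb3* at 174 to 427, *Map2* at 52.2 to 64.7), and so were those of the oligodendrocyte lineage (*Olig1* at 116 to 175). The 6 microglial markers summed to between 0.544 and 1.60 CPM per kb and the 5 endothelial ones to between 0.433 and 0.698. Those of mural cells and fibroblasts (5 genes) summed to 7.86 to 25.0 in 10 libraries and to 40.8 in Smg6-iKO SMH_127, and their part in the results was not tested. Transcripts of progenitors and of neurons were thus both present, and in such bulk samples fewer cells of a type and less RNA per cell cannot be told apart.

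Of the 47 subunit genes, 36 were expressed, that is at 1 TPM, a length-scaled share of the library, or more in every library of at least 1 group. These were all 4 AMPA, all 5 kainate, both delta and both GABA-B genes, 5 of 7 NMDA, 6 of 8 metabotropic glutamate and 12 of 16 GABA-A genes, and none of the 3 rho genes. A further 5 genes (*Grm8*, *Gabrr2*, *Gabrq*, *Grin2d* and *Gabre*) lay below that level but had enough counts to be tested, with means of 0.155 to 0.310 CPM per kb. The remaining 6 did not pass the filter on low counts and were not tested. *Grin3b* had 27 counts over the 11 libraries, *Grm6* 14, *Gabrr1* 9, *Gabra6* and *Gabrp* 2 each, and *Gabrr3* 0, where a count of 0 allows up to 0.0889 to 0.114 CPM in a library. *Gabra6* is a subunit of cerebellar granule cells, and *Grm6* and *Gabrr1* are known from the retina.

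The most abundant of these transcripts was *Gria2*, the AMPA subunit that keeps the channel nearly impermeable to calcium. Its level was 46.3, 47.1 and 43.9 in Ctr, 52.5, 47.5, 36.6 and 55.6 in Ctr + 4-OHT and 46.2, 44.6, 47.2 and 46.4 in Smg6-iKO. *Grm5*, a group I metabotropic receptor, followed at 31.8, 32.0 and 26.1 in Ctr, 34.4, 33.1, 35.4 and 36.5 in Ctr + 4-OHT and 32.5, 36.6, 31.4 and 29.3 in Smg6-iKO. *Gabbr1*, the GABA-binding subunit of the GABA-B receptor, stood at 30.5, 26.1 and 27.4 in Ctr, 31.6, 28.0, 23.9 and 30.1 in Ctr + 4-OHT and 31.7, 30.2, 29.6 and 30.4 in Smg6-iKO.

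Other abundant genes were *Grm3* (mean over the libraries 21.6 CPM per kb), *Grin2c* (18.0), *Grik5* (12.7) and *Gria1* (11.4). *Grm3* is a group II metabotropic receptor known from glia and neurons, *Grin2c* an NMDA subunit of cerebellar and glial cells, and *Grik5* a high-affinity kainate subunit. *Gria2* lay above *Grm5* in all 11 libraries. Below it the ranges of neighbours in this order overlapped, and *Grin2c*, with the widest range, was above *Gabbr1* in Ctr + 4-OHT SMH_129 and below *Grik5* in Smg6-iKO SMH_127, so that the order after *Gria2* is not fixed. The obligatory NMDA subunit *Grin1* was at 1.91, 1.84 and 2.08 in Ctr, 1.90, 1.73, 1.46 and 2.06 in Ctr + 4-OHT and 2.32, 1.93, 2.27 and 2.49 in Smg6-iKO.

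**Figure D1:**
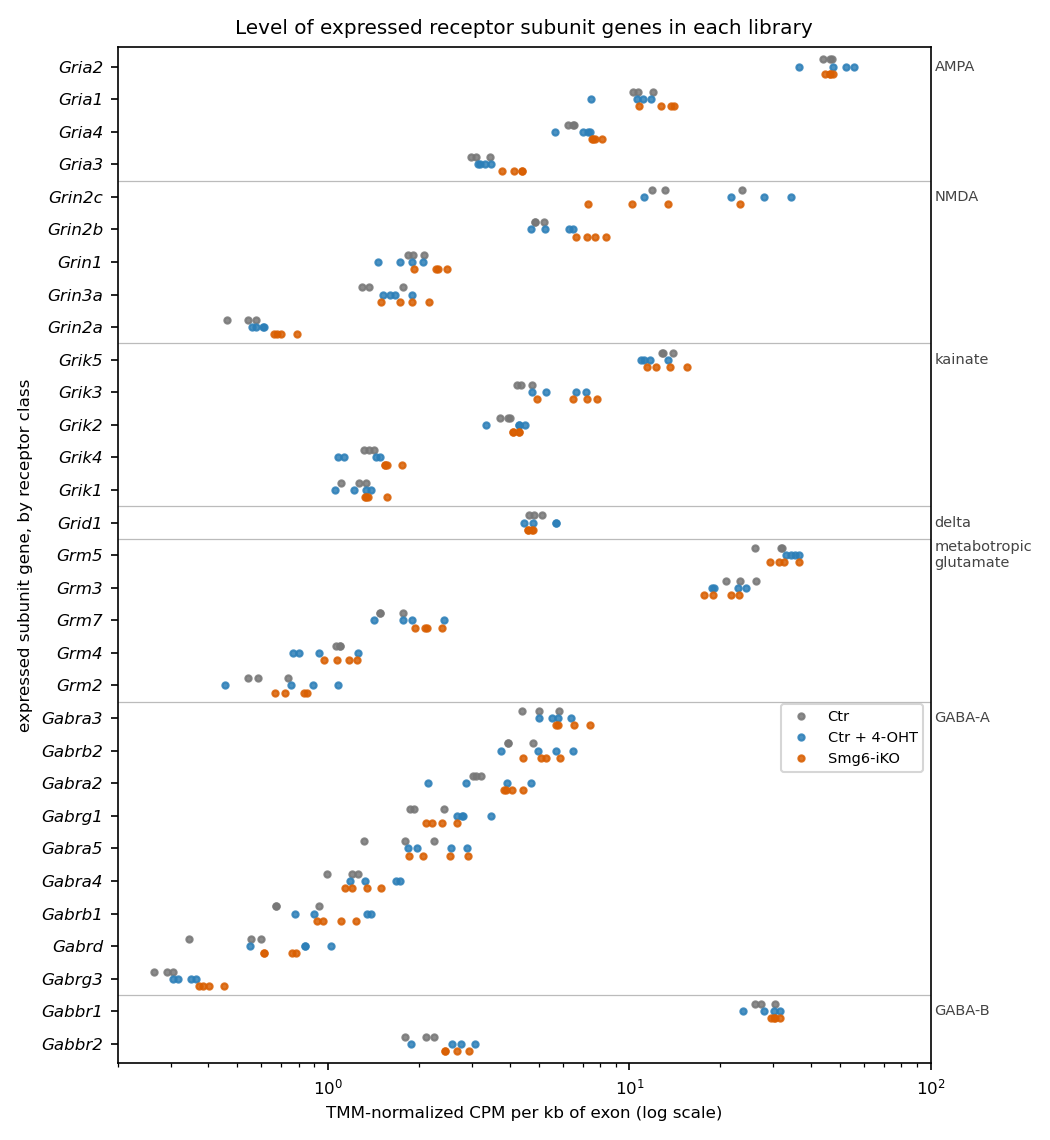
Level of 31 of the 36 expressed subunit genes in each of the 11 libraries, as TMM-normalized CPM per kb of exon on a log axis. Each point is 1 library, coloured by group, and genes are grouped by receptor class. *Gria2* is highest at 36.6 to 55.6, and *Grin2c* has the widest spread of the abundant genes, from 7.26 to 34.5.

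The subunit genes are longer than most. Their exons covered a median of 6658 bases for the 41 that could be tested, against 3747 over all 18123 genes kept, and their loci spanned a median of 223.5 kb against 17.6 kb. Many GABA-A genes lie next to each other: *Gabrg1*, *Gabra2*, *Gabra4* and *Gabrb1* on chromosome 5, *Gabra5* and *Gabrg3* on chromosome 7, *Gabrb2* and *Gabra6* on chromosome 11, and *Gabre*, *Gabra3* and *Gabrq* on the X chromosome. *Gria3* is also X-linked. The X-inactivation transcript *Xist* was at 41.0 to 49.7 CPM per kb in Ctr SMH_133, in Ctr + 4-OHT SMH_125 and SMH_129 and in Smg6-iKO SMH_133, and at 0.116 or less in the other 7 libraries, so each group held libraries with it and libraries without it.

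Because the receptor families arose by gene duplication, the coding bases show how far a read can be assigned to 1 gene. The stretch below encodes 9 residues of the third membrane segment, among the most conserved of all ionotropic glutamate receptors, and is shown for the AMPA genes and for an NMDA and a kainate gene that are described further below. Bases are from GENCODE transcripts on GRCm38, written 5′ to 3′ on the coding strand, and capitals mark the bases that differ from *Gria2*.
Gria2: tcctacacggctaacttagctgccttc
Gria1: tcAtacacAgcCaacCtGgctgccttc
Gria3: tcctacacTgcAaacCtTgctgcTttc
Gria4: tcctacacTgctaaTCtGgctgcAttc
Grin2c: AGctacacggcCaaTCtGgcAgccttc
Grik3: tcctacacggcCaacCtGgctgccttc
The stretches lie at *Gria2* chr3:80702569-80702595, minus strand, exon 12 of 16; *Gria1* chr11:57283571-57283597, plus strand, exon 12 of 16. Those of the other AMPA genes are *Gria3* chrX:41620858-41620884, plus strand, exon 13 of 17, and *Gria4* chr9:4462017-4462043, minus strand, exon 13 of 17. The remaining ones are *Grin2c* chr11:115253749-115253775, minus strand, exon 9 of 13, and *Grik3* chr4:125694042-125694068, plus strand, exon 13 of 16. Although the encoded residues are the same in all 6 genes, 3 to 7 of 27 bases differ from *Gria2*. The stretch of *Grik5*, not shown, has the same 27 bases as that of *Grik3*, so it does not by itself tell these genes apart. Over whole transcripts, at most 0.727% of the distinct 50-base words (the read length) of any AMPA, kainate or metabotropic gene occurred in the transcripts of another gene. The exceptions among all members were *Grin2a* (11.6%, shared with *Aoc2* and *Gm7328*), *Gabrr2* (2.77%) and *Gabrr1* (2.55%), which share them with each other, and *Grid1* (1.23%), so the *Grin2a* count is the least certain of the called ones.

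To ask which of these genes changed after *Smg6* deletion, Smg6-iKO was compared with each control by edgeR's quasi-likelihood test over all genes kept, and a gene was called when its p-value after Benjamini-Hochberg adjustment was under 0.05. Against Ctr, 11 of the 41 tested subunit genes were higher and 0 were lower (26.8% called), where 9.25% of all 17974 genes tested were called, 4.27% higher and 4.98% lower. The 11 included *Grin2b*, *Grik3*, *Gabrg3*, *Grm7*, *Grin2a*, *Gria3*, *Gabra2* and *Gria4*, and their log2 fold changes lay between 0.26 and 0.59. The median log2 fold change of the 41 genes was 0.29, against 0.005 over all genes tested, and 37 of the 41 lay above 0, against 51.0% of all genes.

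Against Ctr + 4-OHT, only *Gria3* was called, 1 of 41 (2.44%) where 1.17% of all 17558 genes tested were. The median of the 41 genes was 0.14, against 0.012 over all genes, and 29 lay above 0. By unadjusted p, 10 of the 41 (24.4%) were under 0.05 where 16.7% of all genes were. Both comparisons use the same Smg6-iKO libraries and are therefore not independent of each other.

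Between the controls, Ctr + 4-OHT against Ctr, 0 of the 41 genes were called by edgeR or limma-voom with the filter on low counts, 2 (*Grik3* and *Gabrg1*) by edgeR without that filter and 1 (*Gabrg1*) by DESeq2, where edgeR with the filter called 0.221% and DESeq2 0.825% of all genes. At an unadjusted edgeR p under 0.05 there were 6 of 41 (14.6%), where 8.28% of all 17665 genes were. The median of the 41 genes was 0.18, and 33 lay above 0. This comparison shares its Ctr libraries with that of Smg6-iKO against Ctr. The comparison of Smg6-iKO with Ctr + 4-OHT, whose cultures had no Cre and came from other embryos, called 1 of the 11 genes. A gene that it did not call is not thereby shown to be unchanged.

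The count against Ctr depended on single libraries. With 1 library left out it fell to 3 (without Ctr SMH_132 or Smg6-iKO SMH_133), 4 (without Ctr SMH_128), 5 (without Ctr SMH_133 or Smg6-iKO SMH_127) or 8 (without Smg6-iKO SMH_132), and it rose to 14 without Smg6-iKO SMH_128. The share of all genes called moved with it, to 3.15 to 5.53% in the fits with fewer subunit genes and to 14.1% without Smg6-iKO SMH_128. Only *Grin2b* and *Gabra2* stayed called in all 7 of these fits, and *Gria3* did so in 6. In a fit over all 11 libraries *Gabra2* was not called, whereas *Grin2b* and *Gria3* were. When the embryo was added as a block, so that Ctr and Smg6-iKO of embryos SMH_128, SMH_132 and SMH_133 were compared within the embryo, 19 genes were called, 18 of them higher. In that fit 21.4% of all genes were called and 10.3% were higher.

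**Figure D2:**
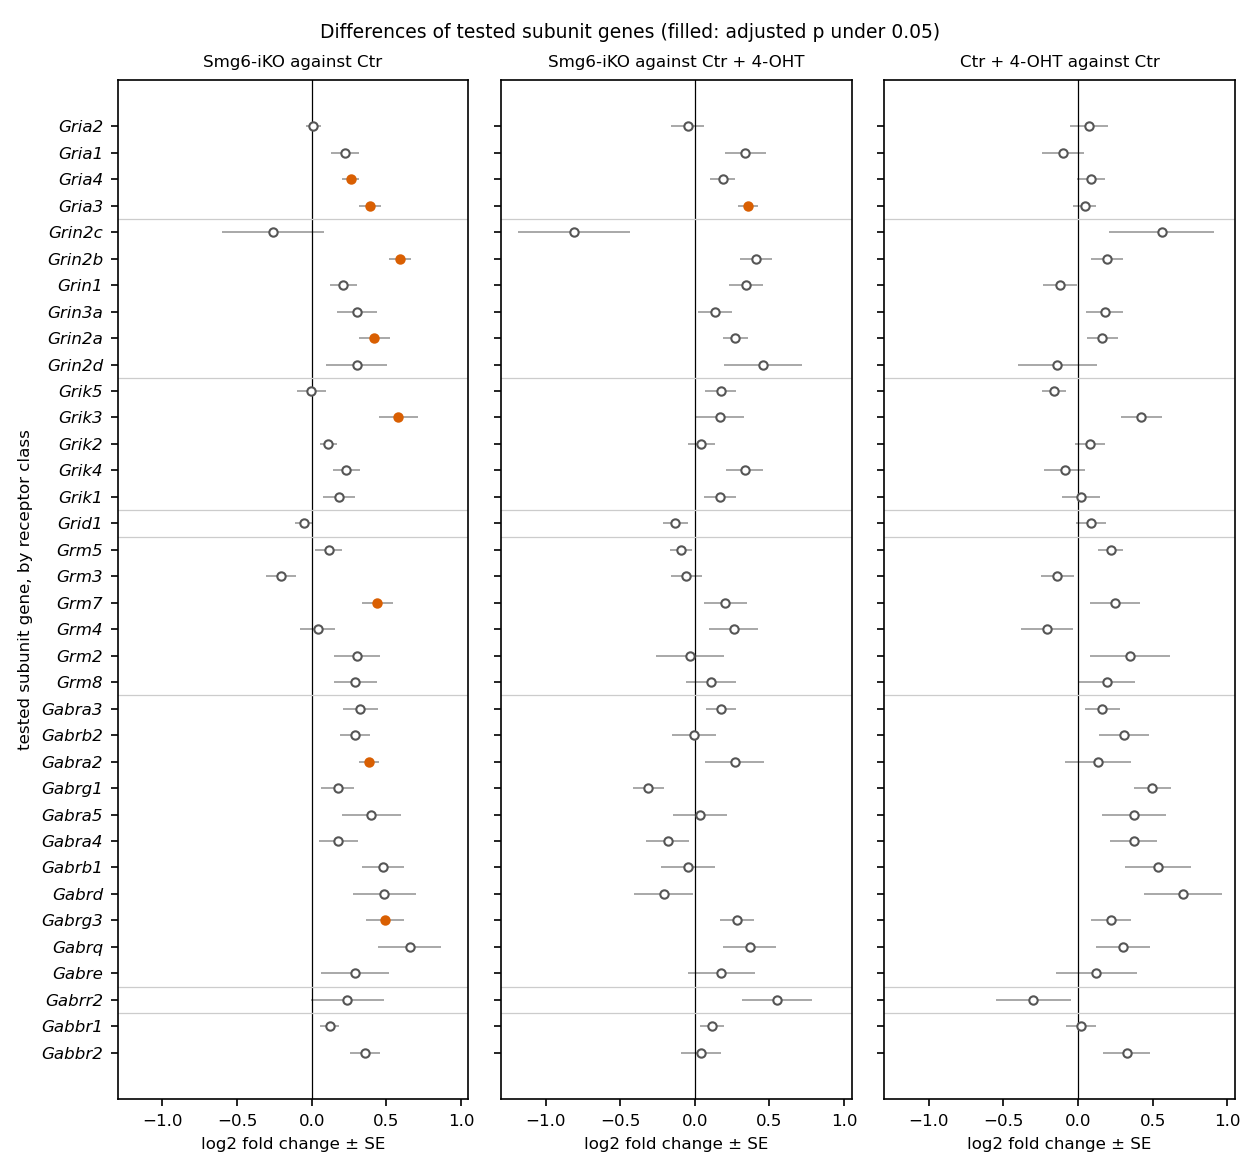
log2 fold change with its standard error of 36 of the 41 tested subunit genes in the 3 comparisons, from edgeR fits without the embryo block, ordered by receptor class. Filled points have an adjusted p under 0.05. Against Ctr 8 of the plotted genes are filled, all to the right of 0, against Ctr + 4-OHT only *Gria3* is, and between the controls there are 0.

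Among the AMPA subunits, *Gria3* (ENSMUSG00000001986, chromosome X from 41400854 to 41678601) was the gene that differed from both controls. Its level was 2.99, 3.45 and 3.10 in Ctr, 3.19, 3.46, 3.32 and 3.15 in Ctr + 4-OHT and 4.39, 4.41, 4.13 and 3.77 in Smg6-iKO. All 4 Smg6-iKO libraries lay above all 7 control libraries. The log2 fold change was 0.39 ± 0.075 (SE, adjusted p = 0.0123) against Ctr and 0.36 ± 0.067 (SE, adjusted p = 0.0369) against Ctr + 4-OHT, and between the controls it was 0.045 ± 0.077. The call against Ctr + 4-OHT was lost in 7 of the 8 fits that left out 1 library, with log2 fold changes of 0.33 to 0.40 and adjusted p up to 0.132, and was kept only without Smg6-iKO SMH_133, the Smg6-iKO library that expressed *Xist*.

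*Gria4* (ENSMUSG00000025892, chromosome 9 from 4417896 to 4796234), a subunit of fast AMPA receptors, was at 6.28, 6.54 and 6.51 in Ctr, 7.26, 7.03, 5.68 and 7.38 in Ctr + 4-OHT and 7.50, 7.68, 8.13 and 7.56 in Smg6-iKO. Again no Smg6-iKO library overlapped with either control. The difference passed the test against Ctr, 0.26 ± 0.055 (SE, adjusted p = 0.0181), but not against Ctr + 4-OHT, 0.19 ± 0.083 (SE, adjusted p = 0.295). *Gria1*, which carries much of the activity-dependent traffic of AMPA receptors, was at 10.7, 10.3 and 12.01 in Ctr, 11.1, 10.6, 7.45 and 11.8 in Ctr + 4-OHT and 13.8, 10.7, 12.8 and 14.1 in Smg6-iKO. The groups overlapped, and *Gria1* was called with the embryo block, 0.18 ± 0.058 (SE, adjusted p = 0.0297), but not without it, 0.23 ± 0.094 (SE, adjusted p = 0.154), unless Smg6-iKO SMH_128 was left out or low counts were not filtered. For *Gria2* the values given above overlapped, and the log2 fold change was 0.011 ± 0.052 against Ctr and -0.048 ± 0.11 against Ctr + 4-OHT.

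As the other 3 AMPA subunits had positive differences and *Gria2* a difference near 0, the make-up of the AMPA transcripts was compared as a share, which no scaling of the libraries changes. This measure was chosen after the values were seen. *Gria2* made up 69.9, 69.9 and 67.0% of the summed level of *Gria1* to *Gria4* in Ctr, 70.9, 69.3, 69.0 and 71.3% in Ctr + 4-OHT and 64.3, 66.1, 65.4 and 64.6% in Smg6-iKO. The Smg6-iKO libraries lay below those of both controls, with a mean of 65.1 ± 0.821 (SD, n = 4) where Ctr had 68.9 ± 1.67 (SD, n = 3) and Ctr + 4-OHT had 70.1 ± 1.16 (SD, n = 4). A two-sided exact permutation test gave p = 0.0286 for each, which is the lowest value possible with these groups, and 0.343 after Benjamini-Hochberg adjustment over the 60 tests of 20 such shares, so the difference did not pass the correction. Passing would have needed most of the 60 tests to reach that lowest value, so the correction could not decide on this share alone. The share of *Gria1* was 19.1, 15.9, 17.7 and 19.6% in Smg6-iKO and 15.0, 15.4, 14.0 and 15.2% in Ctr + 4-OHT, without overlap, but overlapped with the 16.1, 15.3 and 18.3% of Ctr.

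**Figure D3:**
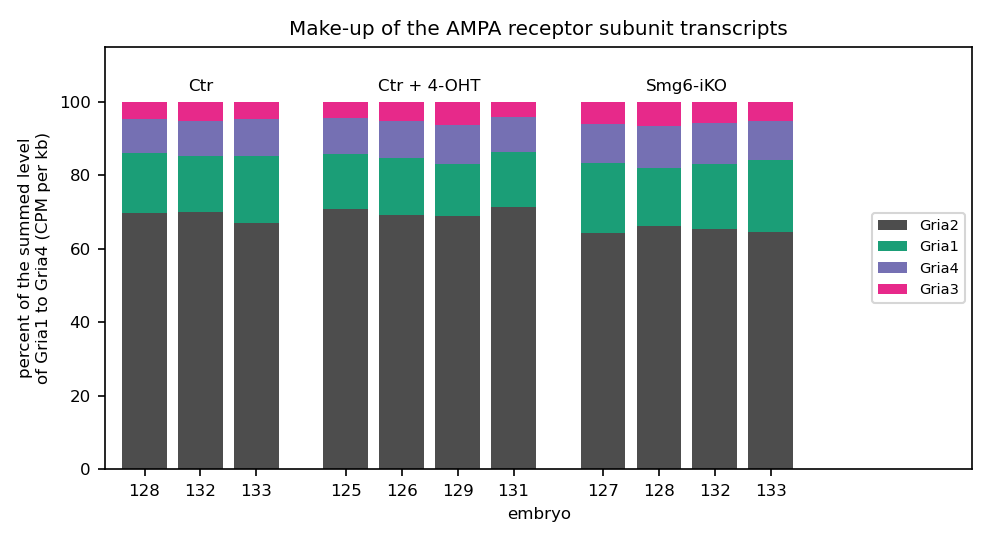
Share of each AMPA subunit gene in the summed level (CPM per kb) of *Gria1* to *Gria4*, as stacked bars for each library, labelled by embryo. The *Gria2* part is 64.3 to 66.1% in the 4 Smg6-iKO libraries and 67.0 to 71.3% in the 7 control libraries.

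Of the NMDA subunits, *Grin2b* (ENSMUSG00000030209, chromosome 6 from 135713233 to 136173511), the glutamate-binding subunit of embryonic and early postnatal brain, had the lowest adjusted p of all 41 genes against Ctr. Its level was 4.88, 4.85 and 5.20 in Ctr, 6.31, 5.25, 4.71 and 6.48 in Ctr + 4-OHT and 8.37, 6.67, 7.23 and 7.71 in Smg6-iKO. All Smg6-iKO libraries lay above both controls, and Ctr + 4-OHT SMH_125 and SMH_131 came closest. The log2 fold change was 0.59 ± 0.076 (SE, adjusted p = 0.00256) against Ctr, or 0.53 ± 0.049 (SE, adjusted p = 9.72e-07) with the embryo block. Against Ctr + 4-OHT it was 0.41 ± 0.11 (SE, adjusted p = 0.0995) in the edgeR fit, which missed the threshold, whereas DESeq2 and edgeR without the filter on low counts called it.

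*Grin2a*, the subunit that becomes prominent after birth, was much less abundant, at 0.541, 0.576 and 0.461 in Ctr, 0.577, 0.613, 0.560 and 0.607 in Ctr + 4-OHT and 0.675, 0.662, 0.789 and 0.695 in Smg6-iKO. Its Smg6-iKO libraries also lay above both controls, and the difference from Ctr was called, 0.42 ± 0.10 (SE, adjusted p = 0.0334), while that from Ctr + 4-OHT was not, 0.27 ± 0.085 (SE, adjusted p = 0.152). *Grin3a*, a glycine-binding subunit that lowers the calcium flow of the channel, was at 1.77, 1.30 and 1.36 in Ctr, 1.90, 1.52, 1.60 and 1.66 in Ctr + 4-OHT and 2.16, 1.89, 1.49 and 1.74 in Smg6-iKO. Its ranges overlapped, and it was called with the embryo block, 0.21 ± 0.075 (SE, adjusted p = 0.0495), and without it when low counts were not filtered. For *Grin1*, whose values are given above, the log2 fold change was 0.34 ± 0.11 (SE, adjusted p = 0.169) against Ctr + 4-OHT.

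*Grin2c* differed more between embryos than between groups. Its level was 23.6, 13.2 and 11.8 in Ctr, 11.2, 27.9, 34.5 and 21.8 in Ctr + 4-OHT and 7.26, 23.3, 13.46 and 10.2 in Smg6-iKO. The 3 embryos sampled with and without 4-OHT gave nearly the same value in both cultures: 23.6 and 23.3 for embryo SMH_128, 13.2 and 13.46 for embryo SMH_132, and 11.8 and 10.2 for embryo SMH_133. The log2 fold change against Ctr was -0.26 ± 0.34 without the block and -0.062 ± 0.055 with it, and its standard error was smaller with it. *Grin2c* was called lower against Ctr only in the fit with no filter on low counts. Against Ctr + 4-OHT, from other embryos, the log2 fold change was -0.81 ± 0.38 (SE, adjusted p = 0.313). The summed level of all members was 242 ± 15.7 (SD, n = 3) CPM per kb in Ctr, while Ctr + 4-OHT had 264 ± 18.7 (SD, n = 4) and Smg6-iKO had 262 ± 7.21 (SD, n = 4). Without *Grin2c* it was 226 ± 9.34 (SD, n = 3) CPM per kb in Ctr, while Ctr + 4-OHT had 240.4 ± 26.7 (SD, n = 4) and Smg6-iKO had 248 ± 7.41 (SD, n = 4), so that the SD was smaller in Ctr and larger in the other groups. *Grin2d* was the only other tested NMDA gene, with a level of 0.121 to 0.318 CPM per kb, and was called in none of the comparisons.

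**Figure D4:**
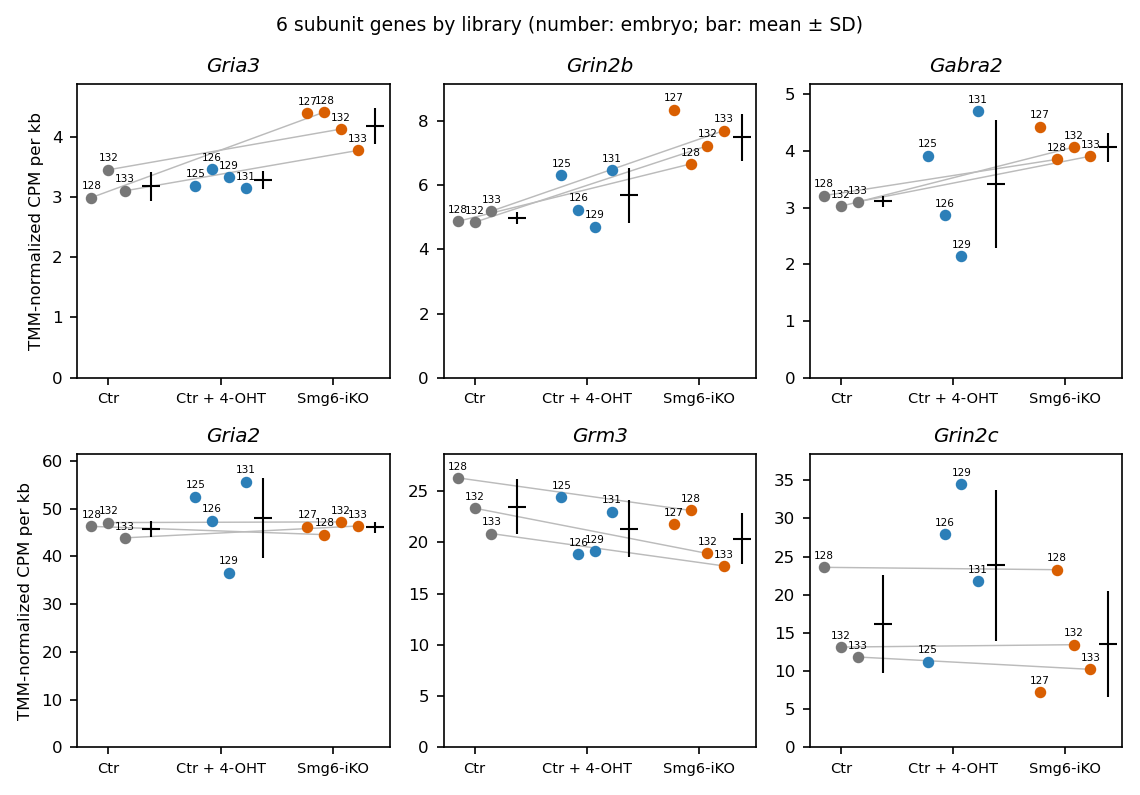
Level of 6 subunit genes in each library (TMM-normalized CPM per kb), with the embryo beside each point, the mean and SD at the right of each group, and lines joining cultures of the same embryo. *Gria3* and *Grin2b* are higher in the Smg6-iKO libraries than in all control libraries, *Gabra2* is higher than in Ctr but within the range of Ctr + 4-OHT, *Gria2* overlaps between the groups, *Grm3* is lower in each of the 3 joined embryos and *Grin2c* follows the embryo.

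Of the 5 kainate subunits 1 was called, with and without the embryo block (20.0%, where 21.4 and 9.25% of all genes were called). *Grik3* (ENSMUSG00000001985, chromosome 4 from 125490700 to 125714173), a low-affinity subunit, was at 4.23, 4.35 and 4.75 in Ctr, 7.17, 6.65, 4.74 and 5.29 in Ctr + 4-OHT and 7.82, 4.95, 6.52 and 7.26 in Smg6-iKO. Smg6-iKO was higher than Ctr in all libraries, and Ctr + 4-OHT lay between and overlapped with both. The log2 fold change was 0.58 ± 0.13 (SE, adjusted p = 0.0223) against Ctr, 0.48 ± 0.068 (SE, adjusted p = 8.29e-05) with the block, 0.17 ± 0.16 (SE, adjusted p = 0.643) against Ctr + 4-OHT and 0.42 ± 0.14 (SE, adjusted p = 0.427) between the controls. *Grik5* was at 12.9, 13.9 and 12.8 in Ctr, 10.9, 13.4, 11.2 and 11.7 in Ctr + 4-OHT and 12.2, 11.4, 15.5 and 13.7 in Smg6-iKO, with log2 fold changes of -0.002 ± 0.10 against Ctr and 0.17 ± 0.10 against Ctr + 4-OHT. *Grik1*, *Grik2* and *Grik4* lay between 1.06 and 4.51 CPM per kb and were not called. Neither was the delta gene *Grid1* (4.48 to 5.72), which encodes a postsynaptic partner of cerebellins.

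Among the metabotropic glutamate receptors, *Grm7*, a presynaptic group III receptor that lowers cyclic AMP, was called higher against Ctr. Its level was 1.77, 1.49 and 1.48 in Ctr, 2.42, 1.89, 1.42 and 1.78 in Ctr + 4-OHT and 2.38, 2.13, 1.94 and 2.10 in Smg6-iKO. Smg6-iKO lay above Ctr in all libraries but overlapped with Ctr + 4-OHT, where embryo SMH_125 was highest. It had a log2 fold change of 0.44 ± 0.10 (SE, adjusted p = 0.0285) against Ctr and 0.20 ± 0.14 (SE, adjusted p = 0.518) against Ctr + 4-OHT.

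*Grm3* was the only subunit gene called lower with the embryo block, and it was not called in any fit without it. Its level was 26.3, 23.4 and 20.9 in Ctr, 24.4, 18.8, 19.1 and 23.0 in Ctr + 4-OHT and 21.8, 23.1, 18.9 and 17.7 in Smg6-iKO, so that each of embryos SMH_128, SMH_132 and SMH_133 was lower in the Smg6-iKO culture than in its own Ctr culture while the groups overlapped. The log2 fold change was -0.24 ± 0.051 (SE, adjusted p = 0.00285) with the block, -0.21 ± 0.10 (SE, adjusted p = 0.225) without it and -0.056 ± 0.11 against Ctr + 4-OHT. *Grm5*, although abundant, was not called, with 0.12 ± 0.091 against Ctr and -0.093 ± 0.071 against Ctr + 4-OHT. *Grm2*, *Grm4* and *Grm8* were at 0.255 to 1.26 CPM per kb and were not called.

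All 14 tested GABA-A genes had a positive log2 fold change against Ctr, from 0.17 to 0.66 with a median of 0.34, and 4 of them were called (28.6%, where 9.25% of all genes were called and 51.0% were above 0). All 14 were also positive in Ctr + 4-OHT against Ctr, from 0.12 to 0.70 with a median of 0.29, with none called by edgeR with the filter. The same Ctr libraries stand in both. Between Smg6-iKO and Ctr + 4-OHT the median was 0.068, with 9 of 14 above 0 and none called by edgeR.

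*Gabra2* (ENSMUSG00000000560, chromosome 5 from 70957597 to 71095849), an alpha subunit that is widespread in the embryonic forebrain, was at 3.21, 3.02 and 3.10 in Ctr, 3.91, 2.86, 2.15 and 4.70 in Ctr + 4-OHT and 4.43, 3.85, 4.06 and 3.90 in Smg6-iKO. The 3 Ctr libraries were close together and below all Smg6-iKO libraries, whereas Ctr + 4-OHT SMH_131 was above and SMH_129 below every other library. The log2 fold change was 0.39 ± 0.067 (SE, adjusted p = 0.0082) against Ctr and 0.27 ± 0.20 (SE, adjusted p = 0.535) against Ctr + 4-OHT.

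*Gabrg3*, a less common gamma subunit, was low, at 0.305, 0.265 and 0.292 in Ctr, 0.349, 0.318, 0.306 and 0.364 in Ctr + 4-OHT and 0.452, 0.384, 0.373 and 0.403 in Smg6-iKO. Its Smg6-iKO libraries lay above both controls, with 0.49 ± 0.12 (SE, adjusted p = 0.0357) against Ctr and 0.28 ± 0.11 (SE, adjusted p = 0.243) against Ctr + 4-OHT. Its neighbour *Gabra5* was not called.

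With the embryo block, 4 more GABA-A genes were called, which makes 8 of 14 (57.1%) where the share of all genes called rose from 9.25 to 21.4%. *Gabra3*, the most abundant alpha subunit here with 36.2 to 48.9% of the summed alpha level, was at 5.86, 4.40 and 5.01 in Ctr, 5.79, 6.41, 5.03 and 5.55 in Ctr + 4-OHT and 7.42, 6.57, 5.81 and 5.69 in Smg6-iKO and had 0.25 ± 0.072 (SE, adjusted p = 0.0202). *Gabrb2*, a beta subunit of mature synapses, was at 4.77, 3.94 and 3.96 in Ctr, 5.71, 4.99, 3.75 and 6.48 in Ctr + 4-OHT and 5.87, 5.07, 4.43 and 5.28 in Smg6-iKO and had 0.22 ± 0.071 (SE, adjusted p = 0.0307). *Gabrb1*, a beta subunit, was at 0.935, 0.670 and 0.669 in Ctr, 1.34, 0.899, 0.775 and 1.38 in Ctr + 4-OHT and 1.24, 1.10, 0.961 and 0.919 in Smg6-iKO and had 0.40 ± 0.087 (SE, adjusted p = 0.00322). *Gabrq*, the theta subunit, was at 0.188, 0.191 and 0.236 in Ctr, 0.264, 0.229, 0.241 and 0.271 in Ctr + 4-OHT and 0.2997, 0.397, 0.356 and 0.242 in Smg6-iKO and had 0.69 ± 0.22 (SE, adjusted p = 0.0318). Of these, only *Gabrq* was higher in all Smg6-iKO libraries than in all Ctr libraries. Without the block adjusted p ranged from 0.0604 to 0.1. All 4 were called without the block when low counts were not filtered, and *Gabrb1* also by DESeq2, with upper-quartile scaling and when Ctr SMH_128 was left out.

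*Gabrg1* had another pattern and is named because its values stood out, not by the rule. It was at 1.87, 2.42 and 1.93 in Ctr, 2.67, 2.78, 3.46 and 2.80 in Ctr + 4-OHT and 2.11, 2.67, 2.38 and 2.21 in Smg6-iKO. Ctr + 4-OHT lay above both other groups without overlap, with 0.50 ± 0.12 (SE, adjusted p = 0.272) against Ctr and -0.31 ± 0.10 (SE, adjusted p = 0.168) for Smg6-iKO against Ctr + 4-OHT, neither of which passed the threshold in edgeR with the filter on low counts. Without that filter the difference from Ctr did. *Gabra4*, *Gabra5*, *Gabrd* and *Gabre* were at 0.112 to 2.92 CPM per kb and were not called, nor was the rho gene *Gabrr2* at 0.185 to 0.402.

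Of the GABA-B genes, *Gabbr1* was not called, with 0.12 ± 0.062 against Ctr and 0.11 ± 0.079 against Ctr + 4-OHT. *Gabbr2*, the subunit that couples to G proteins, was at 2.11, 1.79 and 2.25 in Ctr, 2.75, 2.57, 1.88 and 3.08 in Ctr + 4-OHT and 2.93, 2.44, 2.44 and 2.67 in Smg6-iKO. All Smg6-iKO libraries exceeded all Ctr libraries, and the difference was just short of the threshold without the embryo block, 0.36 ± 0.10 (SE, adjusted p = 0.0517), and past it with the block, 0.30 ± 0.080 (SE, adjusted p = 0.0123). Ctr + 4-OHT overlapped with both. The mean level of *Gabbr1* over the libraries was 29.1 CPM per kb and that of its obligate partner *Gabbr2* 2.45.

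Neuronal marker genes were compared in the same libraries. Their summed level (12 genes) was 458, 365 and 457 CPM per kb in Ctr, 676, 459, 336 and 597 in Ctr + 4-OHT and 594, 504, 479 and 560.1 in Smg6-iKO. Smg6-iKO was above Ctr without overlap (two-sided exact permutation p = 0.0571) and overlapped with Ctr + 4-OHT. All 12 markers had a mean above 1 CPM per kb, but *Tubb3* (mean 289) weighed most in the sum, followed by *Map2* (57.0). The 9 progenitor markers, of which *Fabp7* weighed most (mean 1106), summed to 2064, 2185 and 1979 in Ctr, 1838, 1868, 2135 and 1791 in Ctr + 4-OHT and 1674, 1880, 1709 and 1661 in Smg6-iKO. The last lay below Ctr without overlap (exact permutation p = 0.0571). Neither test passed 0.05, where the lowest p possible with these groups is 0.0286, and neither used the pairing of embryos. In each of embryos SMH_128, SMH_132 and SMH_133 the neuronal sum was higher and the progenitor sum lower in the Smg6-iKO culture than in its Ctr culture. The summed GABA-A level ran along with the neuronal sum: it was 35.1, 30.1 and 32.4 in Ctr, 45.2, 37.2, 30.6 and 45.9 in Ctr + 4-OHT and 45.7, 40.7, 37.1 and 39.8 in Smg6-iKO. Within Ctr + 4-OHT, embryos SMH_125 and SMH_131 were high and embryo SMH_129 low in both sums. The part of these markers in the differences of the receptor genes was not tested. The astrocyte markers (6 genes) summed to 107.8 to 133.3 and those of the oligodendrocyte lineage (8 genes) to 227 to 353, and both overlapped between all groups.

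**Figure D5:**
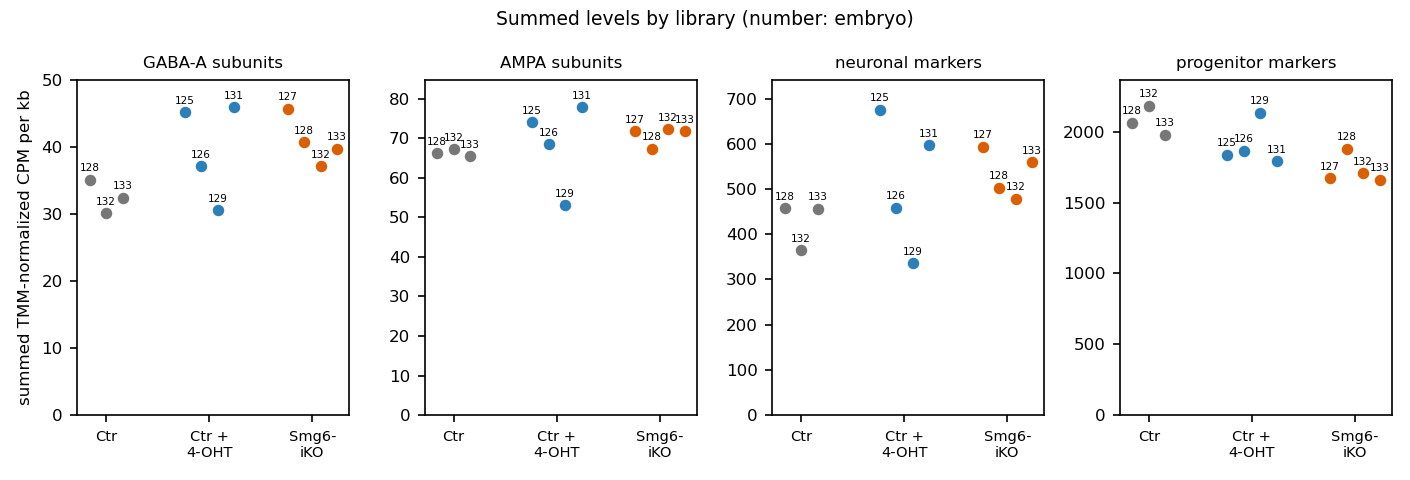
Summed level (TMM-normalized CPM per kb) of the 16 GABA-A and the 4 AMPA subunit genes, of 12 neuronal markers and of 9 progenitor markers in each library, labelled by embryo, on axes that start at 0. Ctr + 4-OHT SMH_129 is the lowest of its group for both receptor sums and the neuronal markers and the highest for the progenitor markers.

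Genes that make, carry or clear the transmitters, and the partners that hold the receptors in place, were followed as a list of 70 genes, of which 68 could be tested. Against Ctr, 14 were called, 7 higher and 7 lower (20.6%, where 9.25% of all genes were called). Against Ctr + 4-OHT edgeR, fitted with the filter on the libraries of the comparison, called 0, with 15 at an unadjusted p under 0.05 (22.1%, where 16.7% of all genes were). DESeq2 called 3 (*Slc6a11*, *Homer3* and *Homer1*) where it called 6.06% of all genes. Between the controls that fit called 0, with 8 at an unadjusted p under 0.05 (11.8%, where 8.28% of all genes were), and DESeq2 2 (*Glul* and *Gsg1l*) where it called 0.825% of all genes. With the embryo block 28 were called against Ctr (41.2%, where 21.4% of all genes were), 15 higher and 13 lower.

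Of the genes for synthesis, uptake and breakdown of GABA, 3 of the 8 tested were lower in Smg6-iKO than in Ctr and 0 were higher, while with the embryo block 4 were lower and 2 higher. Over all genes 9.25% were called without the block (4.98% lower and 4.27% higher) and 21.4% with it. Those lower without the block included the GABA transporter *Slc6a11* (-0.43 ± 0.10 (SE, adjusted p = 0.0226)) and *Abat*, the GABA transaminase (-0.37 ± 0.078 (SE, adjusted p = 0.019)). The 2 higher with the block were *Gad1* (0.19 ± 0.055 (SE, adjusted p = 0.0221)) and *Gad2* (0.29 ± 0.072 (SE, adjusted p = 0.00764)), which make GABA. *Slc6a11* was at 54.9, 47.7 and 45.5 CPM per kb in Ctr, 44.0, 55.5, 57.2 and 38.0 in Ctr + 4-OHT and 31.0, 41.2, 38.8 and 35.4 in Smg6-iKO, so that Smg6-iKO overlapped with Ctr + 4-OHT. Of the 11 tested genes of glutamate synthesis and transport, *Glul*, which makes glutamine from glutamate (-0.53 ± 0.053 (SE, adjusted p = 0.000603)), and *Glud1*, glutamate dehydrogenase (-0.49 ± 0.070 (SE, adjusted p = 0.00365)), were lower and 0 were higher, while with the block 4 were lower and 1 higher. *Glul* was at 114, 108 and 116 in Ctr, 91.0, 84.3, 91.8 and 75.2 in Ctr + 4-OHT and 78.9, 79.8, 74.9 and 79.1 in Smg6-iKO, so that both groups given 4-OHT were below Ctr. For *Abat* and *Glud1* the log2 fold changes were -0.032 and -0.181 against Ctr + 4-OHT, and -0.325 and -0.301 between the controls.

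Both chloride transporters that set the direction of GABA-A currents were higher than in Ctr. *Slc12a2*, which carries chloride into cells, had 0.26 ± 0.066 (SE, adjusted p = 0.0389), and *Slc12a5*, which carries it out of neurons, had 0.34 ± 0.087 (SE, adjusted p = 0.0356). *Slc12a2* was at 10.7, 12.03 and 11.6 in Ctr, 12.6, 11.2, 12.5 and 12.4 in Ctr + 4-OHT and 13.3, 13.2, 13.2 and 14.9 in Smg6-iKO, above both controls. Its difference from Ctr + 4-OHT did not pass the edgeR test, 0.175 ± 0.062 (SE, adjusted p = 0.194). *Slc12a5* overlapped with Ctr + 4-OHT and did not pass either, 0.238 ± 0.083 (SE, adjusted p = 0.184).

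Of 20 scaffold genes of glutamate receptors, 4 were higher and 0 lower than in Ctr, and with the block 7 were higher and 1 lower, where 9.25% of all genes were called without the block and 21.4% with it. The 4 were *Dlg2* (0.41 ± 0.071 (SE, adjusted p = 0.00851)) and *Dlg3* (0.21 ± 0.058 (SE, adjusted p = 0.05)), which tether NMDA receptors, *Dlgap1* (0.26 ± 0.063 (SE, adjusted p = 0.0298)), which binds them, and *Homer3* (0.33 ± 0.061 (SE, adjusted p = 0.0114)), which binds group I metabotropic receptors. Against Ctr + 4-OHT their log2 fold changes were, in this order, 0.027, 0.154, 0.122 and 0.264, and between the controls 0.394, 0.064, 0.153 and 0.074. Of the 14 auxiliary subunits of glutamate receptors, *Neto2*, a partner of kainate receptors, was higher (0.21 ± 0.054 (SE, adjusted p = 0.0359)) and *Gsg1l*, a partner of AMPA receptors, was lower (-0.50 ± 0.11 (SE, adjusted p = 0.0224)), and with the block 2 were higher and 3 lower. For *Neto2* and *Gsg1l* the log2 fold changes were -0.155 and 0.053 against Ctr + 4-OHT, and 0.377 and -0.539 between the controls. Of 13 scaffolds and auxiliary subunits of GABA receptors, *Gabarap*, which takes part in receptor traffic and in autophagy, was lower (-0.41 ± 0.073 (SE, adjusted p = 0.00945)) and none was higher, while with the block 1 was lower and 1 (*Kctd8*) higher. *Gabarap* had -0.111 against Ctr + 4-OHT and -0.287 between the controls. The shares called without the block, 2 of 14 (14.3%) and 1 of 13 (7.69%), lay near that of all genes.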

How the data were processed

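Read counts per gene were used as the authors deposited them, 1 file for each of 11 libraries, with no normalization. Per the labels and the study's methods, total RNA was depleted of ribosomal RNA, sequenced as stranded 50-base single reads, aligned to GRCm38 with STAR 2.5.4b and counted with featureCounts 1.5.0 (bcl2fastq 1.8.4 made the reads). The exon length in the same files merges the exons of all transcripts of a gene, which lowers the level per kb of genes with long rare exons. Gene names came from GENCODE, which gave a symbol to 53706 of 53801 identifiers. The labels give 3 days of 4-OHT, whereas the study's text gives a longer time to RNA isolation, and which holds for these libraries is not settled here.

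Genes were kept by filterByExpr, scaled by TMM and tested with edgeR 4.0.16 (R 4.3.3) quasi-likelihood fits on the libraries of each comparison, with Benjamini-Hochberg adjustment over all genes tested. Exact permutation tests over libraries were two-sided. The fitting code was tested on simulated data. Alternatives were DESeq2's size factors and Wald test (1.42.0), upper-quartile scaling, other filters, a fit over all 11 libraries, a correction for exon length, limma-voom (3.58.1), each library left out, and the embryo as a block. Embryos SMH_128, SMH_132 and SMH_133 gave both a Ctr and a Smg6-iKO library by their labels, and across genes the distance of each library from its group mean correlated at r = 0.328 to 0.425 within an embryo and at -0.265 to 0.095 between embryos. No pair of libraries of the same group agreed within sampling noise, and pairs across groups were not compared in this way.

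The subunit genes and the partner and marker lists were chosen with earlier results of these data known. Values in every library are given for genes called in at least 1 comparison, with or without the embryo block, and for the 8 genes with the highest mean TPM, the others by range, and *Grin1*, *Gabrg1* and the share of *Gria2* were added after their values were seen. A few genes of these lists and the bases of 1 of them are not reported here by name; they stay in the counts, medians and sums. Libraries of a group came from separate embryos, so p-values of tests without the block measure the spread between embryos. Against Ctr these tests did not take into account that embryos SMH_128, SMH_132 and SMH_133 are in both groups. With the block, p-values measure the spread that remains within embryos. Embryo SMH_127, which gave only a Smg6-iKO library, adds nothing to that difference. Intervals and limits for counts of 0 cover counting error only.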

Additional observations from a re-analysis of the deposited data

Results flagged for a closer look

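In the groups of 4 libraries, the gap between the highest or lowest library and its nearest neighbour was divided by the range of the group and set against Dixon's criterion, in 154 groups of values for 36 of the tested subunit genes, 4 other genes, and the sums and shares. Chance gives a library that far apart in about 1 in 20 groups, and 9 were found, 5 of them levels of single genes and 4 of them sums or shares.

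In Ctr + 4-OHT, *Gabrg1* stood apart in embryo SMH_129, at 3.46 CPM per kb where the other 3 libraries had 2.67 to 2.80, and the chloride transporter gene *Slc12a2* in embryo SMH_126, at 11.2 where the others had 12.4 to 12.6. In Smg6-iKO, *Slc12a2* was at 14.9 in embryo SMH_133 and at 13.2 to 13.3 in the others. *Grik1* was at 1.57 in Smg6-iKO SMH_127 and at 1.33 to 1.36 in the others. The same library was highest for the summed level of all subunit genes without *Grin2c*, 259 CPM per kb against 243.8 to 246 in the others, and lowest for the summed oligodendrocyte lineage markers, 227 against 280.1 to 282. *Grik4* was at 1.76 in Smg6-iKO SMH_128, where the others had 1.55 to 1.57, and made up 7.49% of the summed kainate level there against 5.33 to 5.63%. Smg6-iKO SMH_128 also had the lowest summed AMPA level of its group, 67.4 against 71.8 to 72.3.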

How the results depend on the processing

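Small counts of called genes limit what the comparisons show: each differed by more than 1.5 times between some settings. For the subunit genes against Ctr (11 called), 20 were called without the filter on low counts, 4 in a fit over all 11 libraries, 19 with the replicate block (embryo) and 18 with the block and a correction for exon length, and between 3 and 14 with 1 library left out. For the partner genes in that comparison (14 called) these counts were 26, 5, 28 and 26, and 3 to 21. Against Ctr + 4-OHT, 2 subunit genes in place of 1 were called without the filter and by DESeq2's Wald test, and 0 to 1 with 1 library left out; of the partner genes, in place of 0, 1 was called without the filter, 1 in the fit over all 11 libraries, 3 by DESeq2 and 0 to 1 with 1 library left out. Between the controls, in place of 0, 2 subunit genes were called without the filter and 1 by DESeq2, and of the partner genes 2, 1 in the fit over all libraries and 2 by DESeq2. The share of all genes called moved as well: against Ctr it was 9.25%, 7.57% without the filter, 4.39% in the fit over all 11 libraries, 16.9% by DESeq2, 21.4% with the block and 20.4% with block and length correction, against Ctr + 4-OHT it was 1.17%, 1.16% without the filter, 2.67% in the fit over all 11 libraries and 6.06% by DESeq2, and between the controls it was 0.221%, 0.573% without the filter, 0.331% in the fit over all 11 libraries and 0.825% by DESeq2. The cause of these shifts was not tested. Of all genes against Ctr, 767 were higher and 896 lower with TMM and 1089 higher and 694 lower with upper-quartile scaling; under that scaling 13 subunit genes were called, all higher. The other settings kept the counts of subunit and partner genes within 1.5 times.

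Differences near 0 changed sign. *Gria2* against Ctr was -0.008 with the length correction and ran from -0.022 to 0.027 with 1 library left out. *Grik5* against Ctr was 0.031 with upper-quartile scaling, 0.005 without the filter, 0.012 with at least 10 counts in every library, 0.026 with the replicate block, 0.019 with block and length correction, and -0.089 to 0.061 with 1 library left out. With 1 library left out, *Grin2c* against Ctr ran from -0.653 to 0.116, and against Ctr + 4-OHT *Gria2* ran from -0.163 to 0.024 and *Grm3* from -0.126 to 0.006. The share of *Gria2* stayed 4.62 to 5.4 percentage points below Ctr + 4-OHT and 3.33 to 4.79 below Ctr when any 1 library was left out, an alternative added after the data were seen. Thresholds of 0.5 and 2 TPM gave 40 and 32 expressed subunit genes in place of 36.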
